A study of Mus musculus with 3 samples.

Results

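The Zfp genes are the mouse genes whose symbols begin with Zfp and a number, most of them coding for proteins with zinc fingers. They were set against each other and against all probes in an array comparison of mouse liver RNA with mouse spleen RNA. A probe was a member if the platform annotation gave it a single gene symbol of this form, and Zfp36 was left out. This took 101 of 16281 probes, for 92 genes. Of the 101, 98 probes of 91 genes had a value on all 3 arrays. The other probes, one each of Zfp354b, Zfp275 and Zfp618, had a value on 2 arrays and no measurement on the third. Zfp36l1 and Zfp36l2, relatives of Zfp36, fit the rule and were kept.

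Each of the 3 two-colour arrays carried a purchased total RNA of liver in the red dye Cyanine-5 and a purchased total RNA of spleen in the green dye Cyanine-3. Both RNAs were amplified in a single round before labelling. The labels name 1 catalogue product per tissue and give no strain, sex, age or number of mice, and nothing says that the arrays came from separate extractions. The p-values below therefore measure array-to-array spread alone, and that spread may be technical. Liver was in the same dye on every array, so differences between tissues and between dyes cannot be told apart.

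A C2H2 zinc finger is a short protein loop held by a zinc ion on a pair of cysteines and a pair of histidines, and rows of such fingers read DNA sequence. Many Zfp proteins join these fingers to a KRAB domain, which recruits the corepressor Trim28 and with it the histone methyltransferase Setdb1, so that the bound DNA is packed into silent chromatin. KRAB zinc finger genes lie in clusters of related copies in the genome and are known for silencing retroelements and, in a few cases, for keeping imprints. The name Zfp is historical. It also covers CCCH proteins such as Zfp36l1 that speed the decay of mRNA, Zfp185, which carries a LIM domain, and proteins of splicing and ribosome assembly.

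All values are log2 ratios of the 2 channels, given per array or as mean ± SD over n = 3 arrays. The direction of the ratio is not stated and was taken to be liver over spleen. That reading is likely but unproven, and the array titles name spleen before liver. Its basis was a set of liver genes with medians of 2.15, 4.03 and 2.33 on arrays 1, 2 and 3, against medians of -1.68, -1.60 and -1.23 for a set of spleen genes. On arrays 1 and 3 the liver medians are midpoints of 2 probes, those of Ahsg (mean 3.76) and Cyp2e1 (mean 0.43, not past the test). Of 6 liver-set probes, these 2 alone had a value on all arrays. Of 14 hepatocyte marker probes, 8 had a value on all arrays and were tested, and these all lay above 0. Of 10 tested spleen-set probes, 7 passed below 0. The other 3, 1 probe each of Ptprc, Cd3e and Coro1a, had means of 0.03, 0.13 and 0.24 and did not pass. A positive value thus stands for a higher level in liver, and a negative value for a higher level in spleen. If the ratio ran the other way, every sign and every tissue named here would turn round. Each probe was tested against 0 with limma over all 14122 probes measured on all arrays, and was past the test at a Benjamini-Hochberg adjusted p under 0.05. In bulk RNA, fewer cells of a type and less RNA per cell cannot be told apart.

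Promoter sequences are shown for the 2 Zfp genes with the largest ratio past the test toward liver and the 4 toward spleen, among those with a promoter in the table, so that the windows from which these transcripts start can be read side by side with their ratios. They come from RefSeq (GRCm38.p6) and run from 250 bases before to 50 bases after the gene start, 5′ to 3′. The windows are chr7:27731159-27731458 (Zfp60), chr7:24270168-24270467 (Zfp93), chr6:47835411-47835710 (Zfp398), chr6:83914103-83914402 (Zfp638), chr17:46383516-46383815 (Zfp318) and chr8:4612920-4613219 (Zfp958, the first of 3 windows), all on the plus strand. Zfp612 and Zfp354a, also toward liver, were not matched. Capitals mark 2 motifs on either strand, CCGGAA, the core of many ETS factor sites, and GGGCGG, the GC box bound by Sp factors. No 2 marked matches overlap in these windows.
Zfp60: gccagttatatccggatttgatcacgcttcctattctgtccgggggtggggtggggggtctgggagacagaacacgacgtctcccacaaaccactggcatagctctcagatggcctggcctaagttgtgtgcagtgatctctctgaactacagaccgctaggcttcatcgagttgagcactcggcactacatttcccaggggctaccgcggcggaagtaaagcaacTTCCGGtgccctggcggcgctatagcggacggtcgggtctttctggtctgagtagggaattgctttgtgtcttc
Zfp93: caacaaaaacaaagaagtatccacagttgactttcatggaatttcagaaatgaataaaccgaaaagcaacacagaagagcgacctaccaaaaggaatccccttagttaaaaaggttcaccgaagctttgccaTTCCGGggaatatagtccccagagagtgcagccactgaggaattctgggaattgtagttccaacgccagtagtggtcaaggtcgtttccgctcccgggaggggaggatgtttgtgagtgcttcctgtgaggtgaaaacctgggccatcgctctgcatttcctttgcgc
Zfp398: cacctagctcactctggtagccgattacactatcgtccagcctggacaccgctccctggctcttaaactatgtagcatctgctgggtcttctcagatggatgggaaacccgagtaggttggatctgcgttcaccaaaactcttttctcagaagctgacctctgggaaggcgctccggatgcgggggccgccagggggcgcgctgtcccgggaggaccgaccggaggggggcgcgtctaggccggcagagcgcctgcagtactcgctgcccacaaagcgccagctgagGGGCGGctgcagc
Zfp638: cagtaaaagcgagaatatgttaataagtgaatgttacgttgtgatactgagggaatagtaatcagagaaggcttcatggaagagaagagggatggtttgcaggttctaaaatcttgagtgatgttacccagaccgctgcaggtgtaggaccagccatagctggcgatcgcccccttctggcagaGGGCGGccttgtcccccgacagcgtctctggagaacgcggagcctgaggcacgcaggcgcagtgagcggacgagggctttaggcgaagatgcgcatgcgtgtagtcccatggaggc
Zfp318: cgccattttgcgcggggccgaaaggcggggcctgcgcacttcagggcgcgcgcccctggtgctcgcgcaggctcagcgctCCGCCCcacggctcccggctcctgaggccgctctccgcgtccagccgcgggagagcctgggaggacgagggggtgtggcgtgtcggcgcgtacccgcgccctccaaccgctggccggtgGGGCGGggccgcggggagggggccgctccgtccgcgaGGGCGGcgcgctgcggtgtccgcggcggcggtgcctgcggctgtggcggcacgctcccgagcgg
Zfp958: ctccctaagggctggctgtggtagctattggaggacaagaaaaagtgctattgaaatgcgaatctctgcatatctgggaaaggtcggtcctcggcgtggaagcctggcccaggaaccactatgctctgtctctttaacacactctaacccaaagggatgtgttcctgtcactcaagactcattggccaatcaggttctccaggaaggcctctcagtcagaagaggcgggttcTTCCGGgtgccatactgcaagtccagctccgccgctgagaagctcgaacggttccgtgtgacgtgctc
The Zfp60 and Zfp93 windows hold CCGGAA 1 time each and no GC box. The Zfp398 and Zfp638 windows hold 1 GC box each and the Zfp318 window 3, and none of the 3 holds CCGGAA. The Zfp958 window, also toward spleen, holds CCGGAA 1 time and no GC box, so the motifs do not part the 6 windows by direction. A match describes these letters only and says nothing of a factor bound there.

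Fewer Zfp probes passed the test toward liver than toward spleen. Of the 98, 6 passed the test toward liver, where 23.5% of all 14122 probes did, and 37 passed toward spleen, where 26.7% of all probes did. These are 6.12% and 37.8% of the Zfp probes. With the ratio turned, the counts would be 37 toward liver and 6 toward spleen, against 26.7% and 23.5% of all probes. In either direction 43 of 98 passed (43.9%), near the 50.2% of all probes. Counted by gene, 6 genes had a probe past the test toward liver and 35 toward spleen. The share of all genes by this count was not taken. With the probes of a gene averaged and tested over 9803 genes, 6 of the 91 Zfp genes passed toward liver, where 25.3% of all genes did, and 36 toward spleen, where 27.4% did. All 43 probes past the test had one sign on all 3 arrays. With the arrays left out one at a time, 26 of the 43 passed each time and 17 did not pass at least once. The matching shares over all probes past the test were not counted. The sign of these means could not change, since it was the same on all arrays.

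The median of the 98 Zfp means was -0.21, against 0.02 over all probes, and it was -0.13, -0.24 and -0.13 on arrays 1, 2 and 3. The mean was below 0 for 64 Zfp probes (65.3%), against 48.0% of all probes. The differences were small. At 2-fold or more, 1 Zfp probe passed toward liver and 8 toward spleen, against 8.85% and 9.13% of all probes. No tested Zfp probe reached 4-fold, which 4.04% of all probes passed toward liver and 1.85% toward spleen. The means ran from -1.37 to 1.52, whereas those of all probes ran from -4.44 to 6.23. The ratios of the Zfp probes were correlated between arrays. Pearson's r over the 98 probes was 0.810, 0.812 and 0.874 for the array pairs 1 and 2, 1 and 3, and 2 and 3. Over all probes these were 0.948, 0.938 and 0.933, but the means of all probes also spread more widely. The SD of the means over probes was 0.95 for all probes and 0.51 for the Zfp probes. The probes of an array pair share their hybridizations, and r is given as a description.

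**Figure D1:**
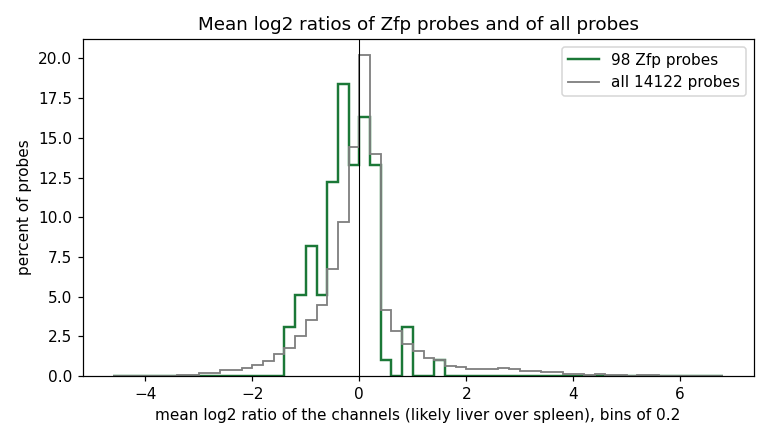
Percent of probes (vertical axis) by mean log2 ratio, likely liver over spleen, in bins of 0.2 (horizontal axis), for the 98 Zfp probes (green) and all 14122 probes (grey). The Zfp probes end at -1.37 and 1.52 and have a median of -0.21, while all probes have a median of 0.02 and reach -4.44 and 6.23.

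Zfp612 had the highest mean of the tested Zfp probes, toward liver as the ratio is read here and toward spleen if it runs the other way. It read 1.46, 1.63 and 1.46 on the 3 arrays, a mean of 1.52 ± 0.10 and a 2.86-fold ratio (limma, adjusted p = 9.31e-05). Its lowest array value stood above every array value of the other 5 probes that passed toward liver. Zfp60, a KRAB zinc finger gene, followed with 1.15, 0.88 and 0.92 on 1 probe, a 1.98-fold ratio (adjusted p = 0.00056). Its other probe read 0.08, 0.21 and 0.15 and did not pass (adjusted p = 0.181). The 2 probes of Zfp60 thus lay on the same side of 0 but did not overlap.

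Zfp354a, also named Kid1 and first described in rat kidney as a KRAB repressor, read 0.91, 0.87 and 1.04, a 1.92-fold ratio (adjusted p = 0.000432). These values lay close together. Zfp93 read 0.58, 0.71 and 0.31, Zfp524 0.42, 0.34 and 0.42, and Zfp276 0.39, 0.27 and 0.23. These last differences were small, from 1.23-fold for Zfp276 to 1.45-fold for Zfp93. The calls of these 3 probes changed when an array was left out. Zfp93 was not past the test without array 2 (adjusted p = 0.0535) and Zfp524 not without array 1 (adjusted p = 0.0558). For Zfp276 the adjusted p was 0.155, 0.101 and 0.0639 without arrays 1, 2 and 3.

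Toward spleen, Zfp398 had the lowest mean. It read -1.43, -1.26 and -1.42, a mean of -1.37 ± 0.10 and a 2.58-fold ratio. Its human counterpart is known to interact with estrogen receptor alpha. Zfp638, a nuclear protein that binds DNA and RNA and takes part in silencing unintegrated retroviral DNA, read -1.47, -1.13 and -1.32, a 2.47-fold ratio. Zfp318, which in mature B cells lets transcription run on to the IgD exons, read -1.38, -1.15 and -1.36 on 1 probe, a 2.46-fold ratio. All array values of these 3 probes lay below -1.

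Zfp958 read -1.21, -1.46 and -0.86 and varied more between arrays, with a mean of -1.17 ± 0.30. Zfp292, whose rat counterpart was found as an activator of the growth hormone gene, read -1.17, -1.33 and -1.01 on 1 probe. Zfp207, a partner of the mitotic checkpoint protein Bub3 that helps form the spindle, read -1.08, -1.22 and -1.06, a 2.17-fold ratio. Zfp1 averaged -1.04 ± 0.13 and Zfp120 read -1.16, -0.94 and -0.91, and both means were just past 2-fold. The adjusted p-values (limma) of these 8 probes lay between 0.000127 and 0.00106.

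Under 2-fold, Zfp101 averaged -0.96 ± 0.11 on 1 probe. Also under 2-fold, the retroviral promoter-binding factor Zfp639 averaged -0.90 ± 0.11, Zfp62 -0.88 ± 0.12 and Zfp788 -0.85 ± 0.14. Zfp239, whose human counterpart MOK2 binds DNA and RNA, read -0.40, -1.23 and -0.84 and had the widest spread of the 15 lowest, with an SD of 0.41. The last pair of the 15, Zfp326 and Zfp593, is described with the RNA and ribosome genes. Another 22 probes passed toward spleen with means between -0.80 and -0.29, or 1.23-fold to 1.75-fold. Among them Zfp119a was the most even, at -0.68, -0.68 and -0.66. Zfp40 averaged -0.71 ± 0.08, and Zfp110, a partner of the neurotrophin receptor p75, averaged -0.41 and -0.50 on its 2 probes. The first Zfp110 probe did not pass without array 2 (adjusted p = 0.0526), nor the second without either array 1 or array 3, with adjusted p-values of 0.0666 and 0.0603.

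**Figure D2:**
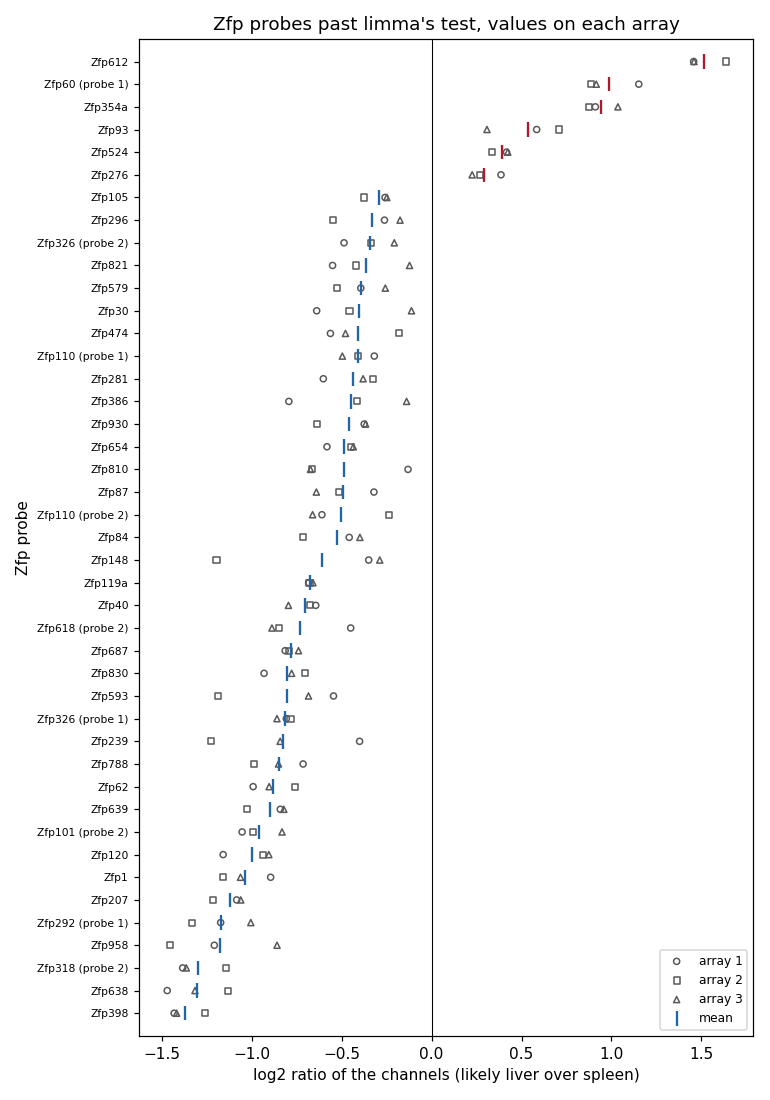
Log2 ratios, likely liver over spleen (horizontal axis), of the 43 Zfp probes past limma's test, 1 row each (vertical axis). Open symbols are the 3 arrays and bars the means, red above 0 and blue below 0. The 6 probes higher in liver stand at the top, led by Zfp612 at 1.52, and the 37 higher in spleen run down to Zfp398 at -1.37.

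The other 55 Zfp probes did not pass, with means between -0.59 and 0.81, and 30 of them had one sign on all arrays. Those with the widest spread need care. Zfp354b had the largest SD of all Zfp probes, 0.75, with 1.64, 0.18 and 0.59 on its fully measured probe (adjusted p = 0.0583). All values were above 0 but array 1 stood far from the others. Zfp704 read -0.03, -0.71 and -1.04 (SD 0.51, adjusted p = 0.0532), and the second probe of Zfp101 read 0.23, 0.20 and -0.67 (SD 0.51). At the quiet end, Zfp2 read -0.01, -0.01 and 0.04, and the LIM protein Zfp185 averaged -0.01 ± 0.15. Of the 98 Zfp probes, 42 (42.9%) had a mean within 0.25 of 0, against 42.3% of all probes.

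Zfp275 gave the largest ratios of any Zfp probe but lacks array 2. It read -3.31 and -3.16 on arrays 1 and 3, both toward spleen, and was listed at 0 on array 2, which was taken as no measurement. In a fit of all probes with at least 2 measured arrays its mean was -3.23 (limma, adjusted p = 8.37e-05, over 2 arrays). The second Zfp354b probe read 0.45 and 0.18 on arrays 2 and 3, and the second Zfp618 probe 0.14 and 0.07. Neither passed that fit.

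Probes of the same gene often gave different ratios. Of 9 genes with 2 probes, 7 had both measured on all arrays. Both probes passed for 2 of them, 1 probe passed for 4 (Zfp101, Zfp292, Zfp318 and Zfp60), and neither passed for Zfp36l1. No gene had probes past the test in opposite directions. The 4 split genes had gaps between their probes of 0.84 to 0.93. The second probe of Zfp318 read -0.74, -0.32 and -0.05 (adjusted p = 0.0835), and that of Zfp292 read -0.54, 0.01 and -0.22. A level of one probe cannot be set against that of another, and close relatives among the Zfp genes may share signal between probes. Neither was resolved here.

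Grouped by known role, 5 lists held 30 of the 91 measured genes, with 33 tested probes. The counts below stand against 23.5% of all probes past the test toward liver and 26.7% toward spleen, and against 27.9% and 29.9% at an unadjusted p under 0.05. Of 8 tested probes of genes with RNA, ribosome and protein handling roles, 0 passed toward liver and 6 toward spleen by limma, 0 and 7 at an unadjusted p under 0.05, with a median of -0.80. Besides Zfp638 and Zfp207, Zfp326, which in human cells links RNA polymerase to splicing as part of the DBIRD complex, averaged -0.82 ± 0.04 and -0.34 ± 0.14 on its 2 probes, the second not past the test without either array 1 or array 2, with adjusted p-values of 0.132 and 0.0973. Zfp593, related to a yeast factor of large ribosomal subunit export, read -0.55, -1.19 and -0.68. Zfp830, a splicing-associated protein, averaged -0.80 ± 0.12. The double-stranded RNA-binding protein Zfp346 was at -0.39 ± 0.33 (adjusted p = 0.0638) and the RNA-binding protein Zfp106 at 0.07 ± 0.11, and neither passed.

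Of 9 tested probes of blood and immune genes, 0 passed toward liver and 2 toward spleen (22.2%, near the 26.7% of all probes) by limma, 0 and 3 at an unadjusted p under 0.05. The median was -0.05. The 2 were Zfp318, described above, and Zfp105 at -0.29 ± 0.07, whose adjusted p was 0.0976, 0.129 and 0.0701 without arrays 1, 2 and 3. The mRNA decay factors Zfp36l1 and Zfp36l2, which restrain lymphocyte growth, lay near 0, with Zfp36l1 at -0.05 ± 0.06 and 0.07 ± 0.19 on its 2 probes and Zfp36l2 at 0.00 ± 0.17. Zfp385a, a p53 cofactor also described in megakaryocytes, read 0.55, -0.20 and 0.40, with values on both sides of 0. Zfp467 was at 0.17 ± 0.08 and Zfp35 at -0.24 ± 0.20, and neither passed.

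Of 7 tested probes of DNA-binding regulators thought to act without a KRAB domain, 0 passed toward liver and 3 toward spleen by limma, where 23.5% and 26.7% of all probes did. At an unadjusted p under 0.05 these were 1 and 6. The median was -0.59. Zfp687, whose human counterpart sits in a chromatin complex with ZMYND8, was the most even at -0.81, -0.79 and -0.74. Zfp618 averaged -0.73 ± 0.24 on its fully measured probe. Zfp148, which binds GC-rich promoter sites, read -0.35, -1.20 and -0.29, with array 2 apart from the other arrays (adjusted p = 0.047). It did not pass without either array 1 or array 2, with adjusted p-values of 0.0554 and 0.0802. Zfp704, given above, did not pass, nor did Zfp64 at -0.25 ± 0.16. Zfp24, known for its need in myelination, was at -0.20 ± 0.07, and the preadipocyte factor Zfp423 at 0.29 ± 0.24.

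Of 4 tested probes of imprinting, retroelement and early embryo genes, 0 passed toward liver and 2 toward spleen by limma, where 23.5% and 26.7% of all probes did. At an unadjusted p under 0.05 these were 1 and 3. Zfp281, a regulator of pluripotency, averaged -0.44 ± 0.15, and Zfp296, known from embryonic stem cells and reprogramming, -0.33 ± 0.20. Zfp281 did not pass without array 1 (adjusted p = 0.067), and Zfp296 did not pass without any 1 array, with adjusted p-values of 0.103, 0.179 and 0.053. Zfp42, the stem cell marker Rex1, was at -0.31 ± 0.21 (adjusted p = 0.0581) and the imprint keeper Zfp57 at 0.21 ± 0.06 (adjusted p = 0.0732). Of 5 tested probes of kidney, liver and metabolism genes, 1 passed toward liver, Zfp354a, and 0 toward spleen by limma, a share of 20.0% toward liver that is near the 23.5% of all probes, against 2 and 0 at an unadjusted p under 0.05. Zfp354c read 0.26, -0.72 and -0.17. Zfp90 read -0.55, -0.13 and 0.36, and Zfp202, whose human counterpart represses genes of lipid metabolism, averaged -0.06 ± 0.21.

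Genes listed as KRAB corepressor machinery lay mostly below 0. The list includes deacetylase, remodeler and DNA methylation genes, and which Zfp members carry a KRAB domain was not counted here. Of 20 tested probes of 19 genes, 0 passed toward liver and 14 toward spleen by limma, against 23.5% and 26.7% of all probes, and 1 and 16 had an unadjusted p under 0.05. The median was -0.64. Trim28, the direct partner of the KRAB domain, read -0.37, -0.05 and -0.35 and did not pass (adjusted p = 0.0832). Setdb1 read -0.81, -0.34 and -0.71 (adjusted p = 0.00804). The lowest means were those of Uhrf1, which guides the maintenance of DNA methylation, at -1.07 ± 0.28, the deacetylase complex subunit Mta2 at -1.03 ± 0.14 and the remodeler Chd4 at -0.98 ± 0.09. All 3 HP1 genes passed toward spleen, with Cbx3 at -0.78 ± 0.41, Cbx5 at -0.65 ± 0.19 and Cbx1 at -0.60 ± 0.12.

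**Figure D3:**
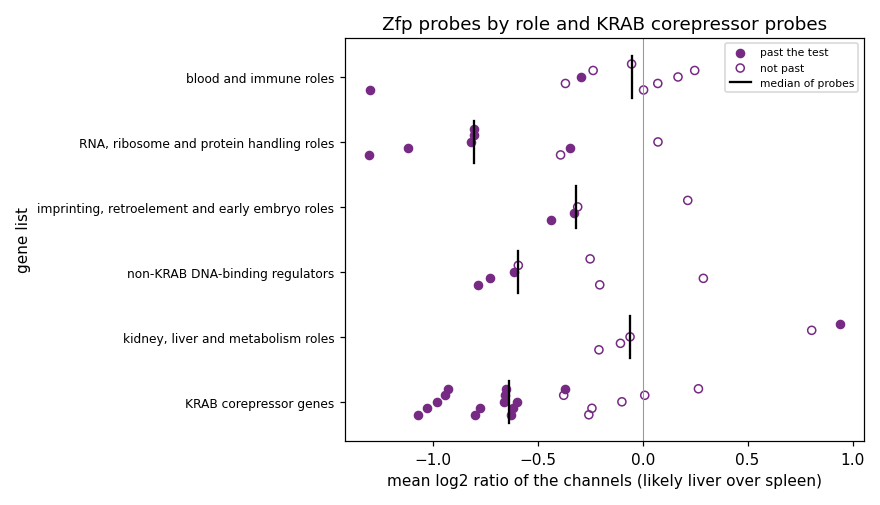
Mean log2 ratios, likely liver over spleen (horizontal axis), of tested probes in 5 lists of Zfp genes by role and in the KRAB corepressor list (rows). Filled points passed limma's test, open ones did not, and black bars are list medians, which lie between -0.80 for RNA, ribosome and protein handling and -0.05 for blood and immune roles.

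Cell type markers moved between the same RNAs, and their counts stand against 23.5% of all probes past the test toward liver and 26.7% toward spleen. Toward liver passed 8 of 8 hepatocyte probes, 1 of 13 T cell, 1 of 10 macrophage, 1 of 8 pancreas and 2 of 8 adipose probes. Toward spleen passed 7 of 10 B cell probes, 8 of 13 T cell, 5 of 10 macrophage, 8 of 9 erythroid, 10 of 11 dividing-cell, 4 of 8 pancreas and 3 of 8 adipose probes. The hepatocyte probes helped to set the direction of the ratio, so their side is not a separate result. The B cell list shares Cd79a and Cd79b, and the T cell list Cd3e, with the spleen genes used for the direction. The list medians were 4.96 for hepatocytes, -1.29 for B cells, -1.22 for T cells, -2.20 for erythroid and -2.27 for dividing cells. They were -0.35 for macrophages, -0.39 for pancreas and 0.08 for adipose tissue. The part of these cell types in the Zfp ratios and in the corepressor ratios was not tested.

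Zfp genes that neighbour each other were compared through the gene order of the RefSeq gene table, with at most 1 other protein-coding gene between members. There were 9 such runs with 24 genes and 25 tested probes, of which 2 passed toward liver, where 23.5% of all probes did, and 7 toward spleen, a share near the 26.7% of all probes. Of the 73 probes outside the runs, 4 passed toward liver, a share below that of all probes, and 30 toward spleen, a share above it. The share toward spleen was higher outside the runs than in them, where it was 28%, and the difference was not tested. The medians were close, -0.20 in runs and -0.21 outside. The longest run, Zfp112, Zfp235, Zfp111, Zfp109, Zfp108, Zfp93 and Zfp94, had 1 probe per gene. Its 7 means lay between -0.25 and 0.53, with Zfp93 the member past the test.

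The neighbours Zfp54, Zfp51 and Zfp53 lay between -0.34 and -0.22, and none passed. Zfp84 and Zfp30 both passed toward spleen, at -0.52 ± 0.17 and -0.40 ± 0.27, Zfp30 not without either array 1 or array 2, with adjusted p-values of 0.166 and 0.149. In another run the 2 members lay on opposite sides, with Zfp524 at 0.39 ± 0.05 toward liver and Zfp579 at -0.39 ± 0.13 toward spleen, both past the test. Zfp579 did not pass without either array 1 or array 2, with adjusted p-values of 0.0677 and 0.0837.

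**Figure D4:**
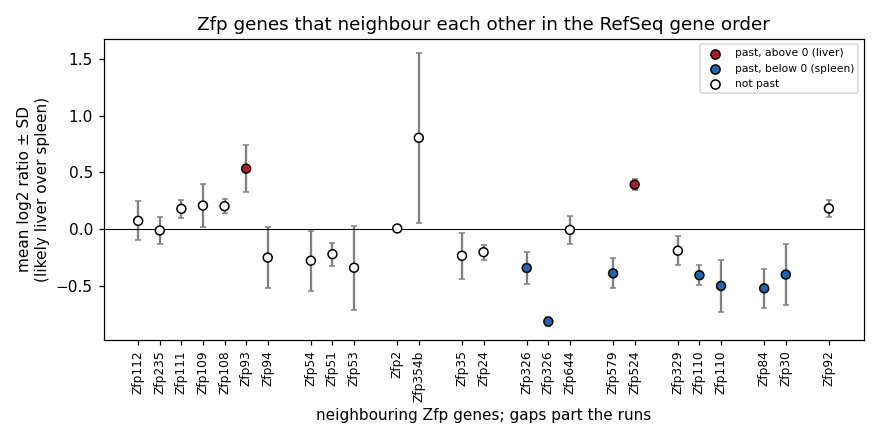
Mean log2 ratios ± SD over 3 arrays, likely liver over spleen (vertical axis), of tested probes of Zfp genes in 9 runs of neighbours (horizontal axis, in gene order). Red and blue points passed limma's test above and below 0, and white points did not. In the run from Zfp112 to Zfp94, Zfp93 at 0.53 is the coloured point.

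Promoter windows were found in the RefSeq table for 73 of the 92 genes, 96 windows in all, since a gene can have several. Zfp windows were richer in CpG than others, with a median of 15.5 CpG per 300 bases against 7 over all 32851 windows, and a median GC content of 56.8% against 52.7%. CCGGAA was in 31.2% of Zfp windows against 14.9% of all windows, and GGGCGG in 49.0% against 35.7%. On both strands, CCAAT was in 45.8% of Zfp windows against 37.4% of all, GCATGCGC in 7.29% against 2.71%, TGACGT in 9.38% against 7.51% and TATAAA in 10.4% against 13.6%. ACTACA, part of the site of human ZNF143, was in 22.9% against 10.3%. These shares were not tested, nor was their relation to CpG content.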

How the data were processed

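The deposited table holds 1 log2 ratio of the channels per probe and array, as made by the authors. Its log base was taken from the values, whose highest is 6.64, the log2 of 100. The sources used here do not say how the authors corrected background, normalized dyes or centred the columns. No intensities were used, so probes near background cannot be told from probes with equal levels. Array precision is limited by their number. An exact 0 was read as no measurement (1414, 1098 and 1137 probes on arrays 1, 2 and 3).

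Probe names are those of the platform annotation, and all 101 Zfp probes matched a RefSeq gene by Entrez number. The test was limma 3.58.1 in R 4.3.3, intercept only, per probe, with moderated variances, two-sided, adjusted over all 14122 probes. The probe and not the gene mean was the unit because probes of a gene differ. Alternatives were gene means, zeros kept, centring, a 2-array minimum, a robust prior, single-symbol probes, CCCH relatives left out, and each array left out. In 3 simulated runs the test called 62.0% of probes shifted by 1 on the log2 scale and 4.00% of those shifted by 0.5. These runs held 150 probes of each shift against 41766 unshifted ones, whereas 50.2% of the real probes passed. Adjustment is stricter when few probes are shifted, so these shares do not carry over to the real fit.

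Named Zfp probes were the 15 with the largest means past the test in each direction (6 toward liver), role list members, the 3 with the widest spread, and members measured on 2 arrays. Other names were chosen after their values were seen, as were the motifs. The Zfp genes and all lists were chosen with earlier results of these data known. A planned count of fingers per protein was not run, as protein sequences were not used here.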

Additional observations from a re-analysis of the deposited data

How the results depend on the processing

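Centring, a robust prior, single-symbol probes, a 2-array minimum, gene means, kept zeros and leaving out CCCH relatives each left the Zfp counts within 1.5 times of those given. They ranged from 6 to 8 toward liver and from 29 to 39 toward spleen, the lowest spleen count with zeros kept. With zeros kept, 19.0% of all probes passed toward liver and 18.6% toward spleen. In the other of these settings the shares of all probes or genes were 21.7% to 25.3% toward liver and 25.1% to 27.8% toward spleen. Without any 1 array the counts were 4 to 6 toward liver and 27 to 34 toward spleen. The shares of all probes also fell then, to between 16.3% and 19.3% toward liver and between 20.6% and 23.3% toward spleen. At 2-fold, 1 to 3 probes passed toward liver and 8 to 9 toward spleen without any 1 array, with 3 toward liver without array 2 and 2 without array 3. In the settings with all arrays, 1 passed toward liver at 2-fold each time and 6 to 9 toward spleen, 6 with gene means. Averaged over their probes, Zfp318 was at -0.83 and Zfp292 at -0.71, both under 2-fold. Shares of all probes at 2-fold were taken for the main fit only. The median of the Zfp probes lay between -0.23 and -0.18 in all settings. With gene means, fitted and adjusted over 9803 genes, 1 KRAB corepressor gene passed toward liver, against 0 of the probes. Only Mbd3 and Rbbp4 had corepressor means above 0 in the main fit, each on 1 probe, so averaging did not change their ratios. Mbd3 was at 0.27 ± 0.12, just short of the threshold (limma, adjusted p = 0.0515), and Rbbp4 at 0.01 ± 0.13 (adjusted p = 0.937). What moved the call was not tested. Of the 21 probes with the largest means past the test (6 toward liver and 15 toward spleen), Zfp239 did not pass with zeros kept (adjusted p = 0.0657), and Zfp93, Zfp524 and Zfp276 did not pass without some arrays, as given above. Other named probes past the test were checked only with single arrays left out. Each ratio already sets liver against spleen within an array, and no further pairing applied because all arrays form 1 group. Without dye swaps, intensities or separate animals, these values describe 1 pair of RNAs.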
